A study of Columba livia with 16 samples.

Results

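The locus of *Tbx5* and *Tbx3* was described as the H3K27ac peaks that overlap positions 300000–1200000 of scaffold 70, in limb buds of 2 pigeon breeds. These were 116 of the 73059 peaks in the 4 deposited lists, with 35 from the racing homer forelimb, 23 from the racing homer hindlimb, 29 from the Indian fantail forelimb and 29 from the Indian fantail hindlimb. The rule used only position and no measured value. The pair of genes lies within 0.64–0.8 Mb, and the stretch was divided into a *Tbx5* window (0.64–0.76 Mb), a *Tbx3* window (0.76–0.8 Mb) and a flank on each side. A peak is assigned to a gene here by its window alone, since the exons of neither gene were placed on these scaffolds. In another pigeon assembly, the RefSeq gene table places RBM19 and MED13L as the protein-coding neighbours on either side of the pair.

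Tbx5 is a T-box transcription factor that marks the forelimb bud in vertebrates and is needed for the bud to form. Tbx3 is a neighbouring T-box paralog that is active in both pairs of limbs, where it acts in patterning along the front-to-back axis. Acetylation of histone H3 at lysine 27 (H3K27ac) marks active enhancers and promoters, and a peak is a stretch in which ChIP-seq reads for the mark were enriched.

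All buds were taken at stage HH25. The racing homer is scale-footed, and the Indian fantail is small-muffed, a feather-footed breed that carries a deletion near *Pitx1* on scaffold 79. The breeds are not known to differ at *Pitx1* alone. The study also found that muffed birds differ from scale-footed birds near *Tbx5*, where they share similar haplotypes (sets of linked variants). It states that the feather-footed embryos of its expression work had derived haplotypes of both genes. For each breed and limb, 2 ChIP and 2 input libraries were made, 16 in all, and whole buds were used, so more acetylation per cell and more cells of an acetylated type cannot be told apart. Each breed and limb is given as a single list, so an error between replicates cannot be given, no difference was tested, and the depth behind a peak is unknown. The lists hold 16474 and 18821 peaks for racing homer forelimb and hindlimb, and 15357 and 22407 for Indian fantail. Peak scores start at 50 and rank peaks within their own list. Scores of exactly 3100 recur in each list, in 59 to 169 peaks, so peaks at this score cannot be ranked among each other. The *Pitx1* window of scaffold 79 (6.763–7 Mb), a hindlimb gene, served as a check of the labels. Peaks there covered 14.5 kb in racing homer and 14.0 kb in Indian fantail forelimb, against 54.4 and 61.4 kb in the hindlimbs.

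Forelimb and hindlimb peaks were first compared within each breed, to ask which acetylated stretches of the locus belong to a single limb. In racing homer, 15 of 35 forelimb peaks (42.9%) had no hindlimb peak of the breed over them by even 1 bp, against 20.0% over the whole forelimb list. In Indian fantail, the same held for 9 of 29 forelimb peaks (31.0%), against 12.6% over the list. The opposite count was below its background in both breeds. Of the racing homer hindlimb peaks, 5 of 23 (21.7%) had no forelimb peak, against 32.0% over the list. Of the Indian fantail hindlimb peaks, 7 of 29 (24.1%) had none, against 41.9%. The peaks without a partner were not spread evenly over the locus. The *Tbx5* window held 10 of the 15 racing homer and 7 of the 9 Indian fantail forelimb peaks that had none, and it held no hindlimb peak without a forelimb peak in either breed. Neighbouring peaks are not independent, and joining peaks within 1 kb of each other left 9 and 2 such forelimb peaks. No share over the joined lists stands beside these counts, so whether the excess over background remains after joining was not tested.

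**Figure D1:**
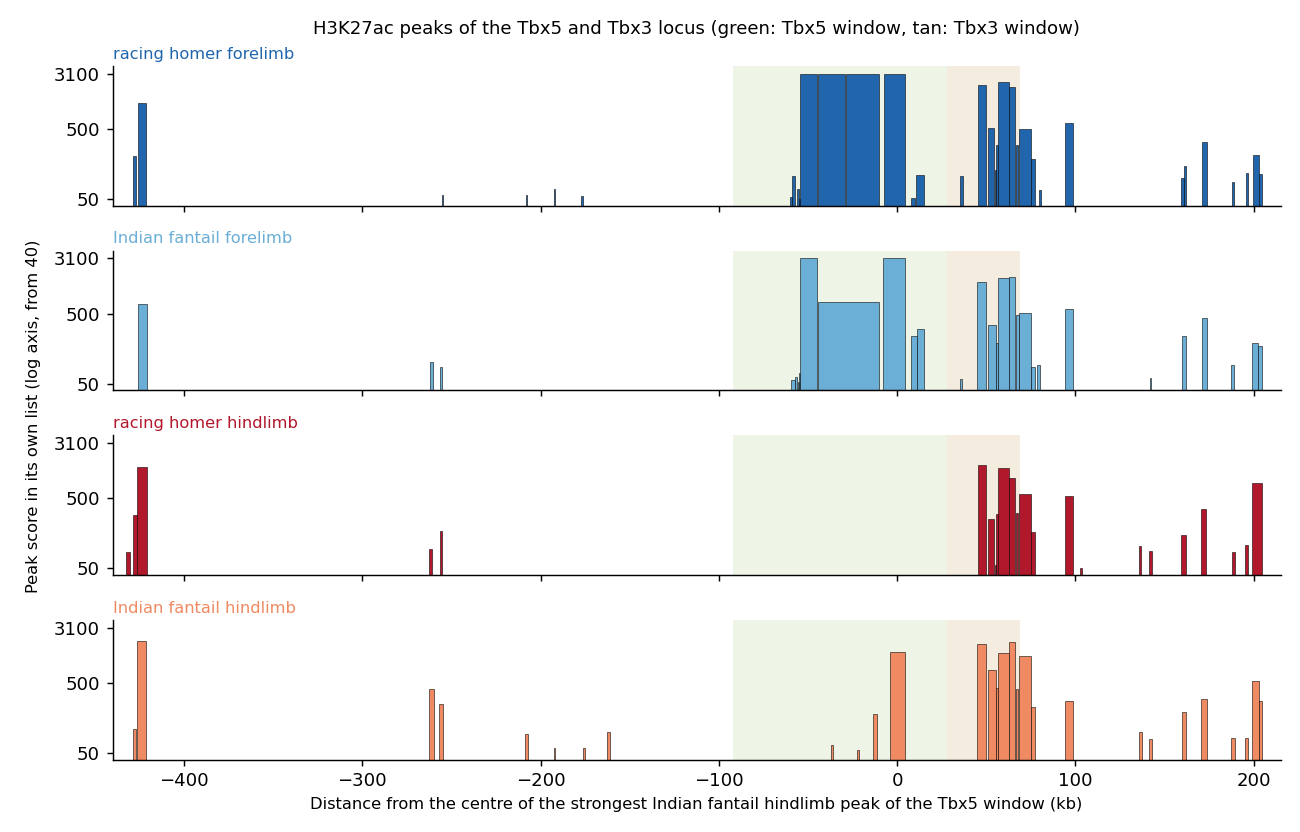
Peaks of the 4 lists along the locus, in kb from the centre of the strongest Indian fantail hindlimb peak of the *Tbx5* window; each bar spans a peak and its height is the score of that peak in its own list, on a log axis. Racing homer hindlimb has 0 peaks in the *Tbx5* window, where racing homer forelimb has 10, Indian fantail forelimb 9 and Indian fantail hindlimb 4.

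In the racing homer forelimb, the *Tbx5* window held a dense block of 10 peaks from 671298 to 746888. Peaks covered 66.0 kb of this 75.6-kb span, which is 87.3% of it. The core of the block was 4 wide peaks that all scored 3100, a score shared by 90 peaks of the list. The first, at 677169–686575, was 9.41 kb wide. The second, at 686972–702227, was 15.3 kb wide and ranked 20th by width. The third, at 702884–721600, was 18.7 kb wide and ranked 8th among all racing homer forelimb peaks. The fourth, at 724411–736115, was 11.7 kb wide and ranked 49th. These core peaks stood well above the 6 others of the block, which were lower and mostly narrow. To the left, 4 peaks between 671298 and 677072 scored 50.3 to 105 and were 533 to 1502 bp wide. To the right, the peak at 739602–741456 scored 51.25 and the peak at 741995–746888 scored 111. Both thus lay below the median score of the list, 121, in spite of the 4.89-kb width of the last.

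The Indian fantail forelimb had the same block, of 9 peaks from 671772 to 746761, with 69.1 kb covered of 75.0 kb (92.1%). Of the covered bases, 98.5% in racing homer forelimb and 94.1% in Indian fantail forelimb lay under a peak of the other breed's forelimb. Over all scaffolds these shares were 77.3% and 73.6%, without matching for score or width. The peaks at 677175–686575 (9.40 kb) and 723453–736159 (12.7 kb) both scored 3100. The first of these ended at the same base as its racing homer counterpart and started 6 bp away from it. Between them, the stretch that racing homer forelimb divided into 2 peaks was a single Indian fantail peak at 686952–721525. It was 34.6 kb wide, the widest of the 15357 peaks of its list, but scored 745, a score that 94.5% of the list fell below. On the right, the peaks at 739304–742593 and 742686–746761 scored 241 and 300, against a list median of 119. On the left, 4 peaks between 671772 and 677075 scored 52.4 to 71.5.

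Hindlimbs of the breeds were then set beside this block. The racing homer hindlimb had no peak in the *Tbx5* window, and so none of the 66.0 kb acetylated in the forelimb was called in the hindlimb. The Indian fantail hindlimb had 4 peaks there, which covered 13.2 kb. All 4 lay wholly inside forelimb peaks of both breeds, so 100% of their bases were also acetylated in either forelimb. Over all scaffolds, 57.7% of Indian fantail hindlimb bases were covered in its own forelimb and 55.0% in the racing homer forelimb. However, forelimb peaks covered 87.3% and 92.1% of the block in racing homer and Indian fantail, so most short peaks placed there would lie inside them. The strongest, at 727306–735823, was 8.52 kb wide and scored 1381, above 96.6% of its list. It covered 72.8% of the racing homer and 67.0% of the Indian fantail forelimb peak around it. It ended 292 and 336 bp before the ends of those peaks, but started 2895 and 3853 bp after their starts. The other 3 were short and lay in the middle stretch of the block. The peak at 718140–720294 scored 177, the peak at 694455–695672 scored 64.6, and the peak at 708962–710234 scored 54.2. They covered between 3.52% and 11.5% of the forelimb peaks around them. No Indian fantail hindlimb peak reached the 9.40-kb peak on the left of the core, the short peaks outside it, or the pair of peaks on the right. In all, 19.1% of the bases covered in the Indian fantail forelimb were covered in its hindlimb, against 84.4% over all scaffolds. In racing homer these shares were 0% and 78.7%.

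**Figure D2:**
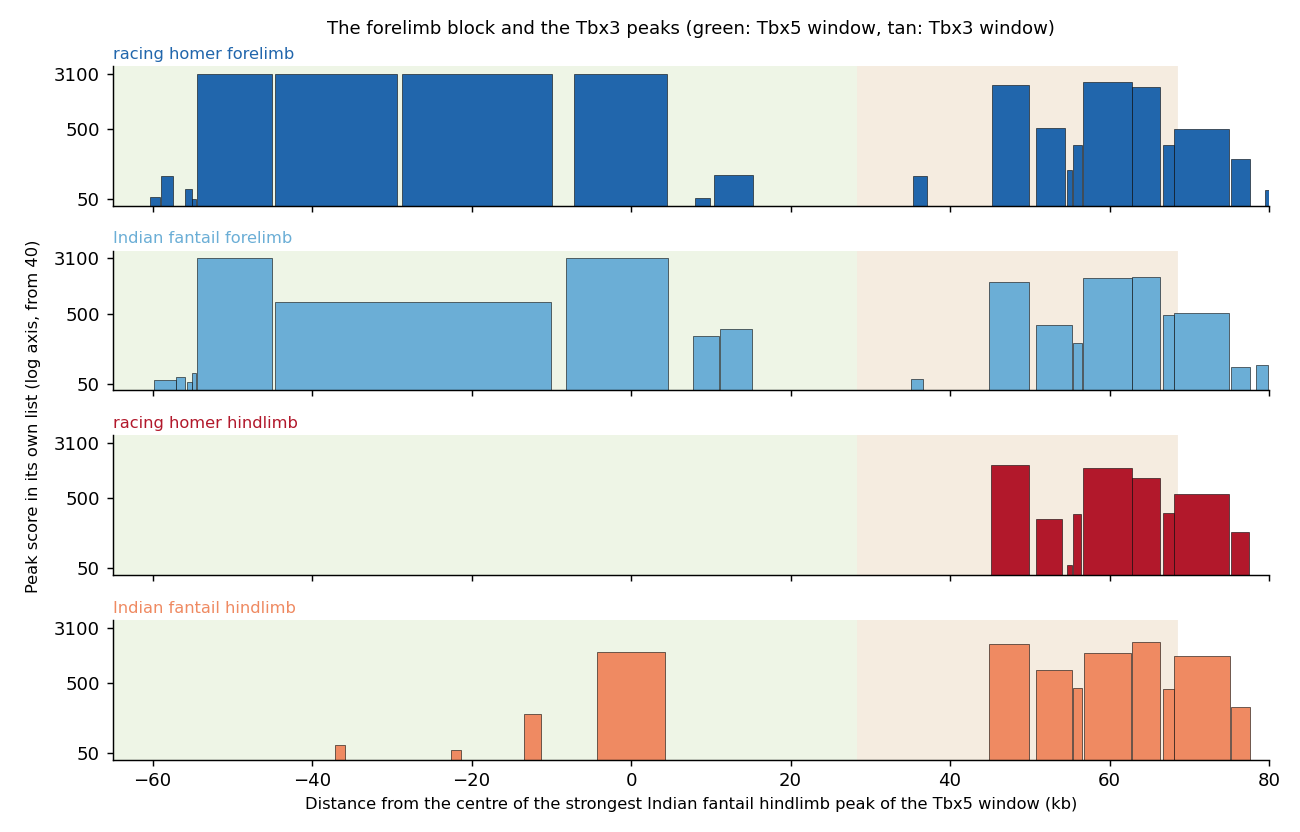
The forelimb block and the *Tbx3* peaks enlarged, with bars and axes as in the map of the whole locus. The 4 Indian fantail hindlimb peaks of the *Tbx5* window sit inside forelimb bars, and the 8.52-kb one ends near the right edge of its forelimb peak, whereas the *Tbx3* bars line up in all 4 lists.

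The Indian fantail list is longer than the racing homer hindlimb list, and 30.0% of its peaks have no racing homer hindlimb peak over them. In the locus this count was 8 of 29 (27.6%), near that background, and 4 of the 8 were the peaks of the *Tbx5* window. The covered length there is less common. In 37 of 8914 other windows of 120 kb (0.415%), Indian fantail hindlimb peaks covered at least 13.2 kb more than racing homer hindlimb peaks did. These windows tile all scaffolds and were not matched to the *Tbx5* window for acetylation. The last window of a scaffold can run past its end and is counted in full, so the share among complete windows may be higher. When each list was reduced to its 15357 highest-scoring peaks, the Indian fantail hindlimb list kept scores of at least 88.39, and the peaks at 718140–720294 and 727306–735823 remained, covering 10.7 kb.

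To find where the forelimb-only block ends, forelimb peaks in a row without a hindlimb peak of the breed were joined into runs. The racing homer run had 14 peaks, from 523637 to 768627, and covered 70.2 kb. Its ends reached past the dense block on both sides. On the left it took in 3 weak peaks, at 523637–524228 (score 57.5), 538937–539842 (69.8) and 554210–555229 (55.2), beyond a 116-kb gap that held no forelimb peak. On the right, after a gap of 20.1 kb, it took in the peak at 766946–768627 (106), which lies in the *Tbx3* window. The first racing homer hindlimb peaks outside the run were at 474958–476546 (score 170) and 468885–470745 (93.6) on the left. On the right they were the first *Tbx3* peaks, at 776707–781460 (1487) and 782397–785613 (251). The interval from 476547 to 776706 thus held no racing homer hindlimb peak over 300.16 kb. Other intervals were as long, 525 among 18069. None of the others held as much forelimb acetylation, 70.5 kb here against at most 27.9 kb. The run likewise had no equal among 2462 runs. Taken separately, the most peaks in any other run were 6 and the most covered length was 18.9 kb.

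In Indian fantail the same rule gave a run of only 5 peaks, from 671772 to 686575, with 14.4 kb covered. It was bounded by hindlimb peaks at 568902–570307 (score 98.3) and 555584–556768 (59.1) on the left and by those at 694455–695672 and 708962–710234, inside the block, on the right. It was not the largest of the 1546 Indian fantail runs, most of which (1273) had 1 peak. In covered length 9 others reached it, and in number of peaks 7 others did. The short hindlimb peaks set this end. When peaks counted as shared only if 50% of each was overlapped, in place of 1 bp, the run had 6 peaks, reached 721525 and covered 49.0 kb, and no other run covered as much (at most 41.8 kb). The longest interval of the locus between Indian fantail hindlimb peaks that touched a forelimb peak lay elsewhere, at 310506–468863, and held only the last 0.437 kb of 1 forelimb peak. Around the block, the stretches without a hindlimb peak were 570308–694454 (124 kb, with 21.9 kb of forelimb peaks) and 735824–776465 (40.6 kb, with 9.25 kb).

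The left and right ends of the block itself were alike in the breeds. The first forelimb peak of the window started at 671298 in racing homer and 671772 in Indian fantail, after 116 and 195 kb without a forelimb peak. The last ended at 746888 and 746761, before 20.1 and 19.9 kb without one. In the gap between the block and the *Tbx3* peaks, both forelimbs had 1 isolated peak and neither hindlimb had any. It lay at 766946–768627 in racing homer (score 106) and at 766620–768119 in Indian fantail (58.6), and 8.23 and 8.30 kb separated it from the first peak shared by the limbs. It is thus the last forelimb-only peak before the *Tbx3* peaks begin.

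The limb difference in covered length was then placed among all windows of 120 kb, the length of the *Tbx5* window. Forelimb minus hindlimb came to 66.0 kb in racing homer and 55.9 kb in Indian fantail. Of 8914 other windows, 0 reached this value in either breed, and the highest others were at 27.4 and 26.6 kb. The *Tbx5* window was placed around the block while the others were laid end to end, and the count was also 0 when they were shifted by 60 kb. The window was less extreme by forelimb acetylation alone, with 5 other windows covered as much in racing homer and 6 in Indian fantail. The comparison of limbs counted only a forelimb excess. In the opposite direction, the lowest other windows were at -60.4 kb in racing homer and -65.6 kb in Indian fantail.

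**Figure D3:**
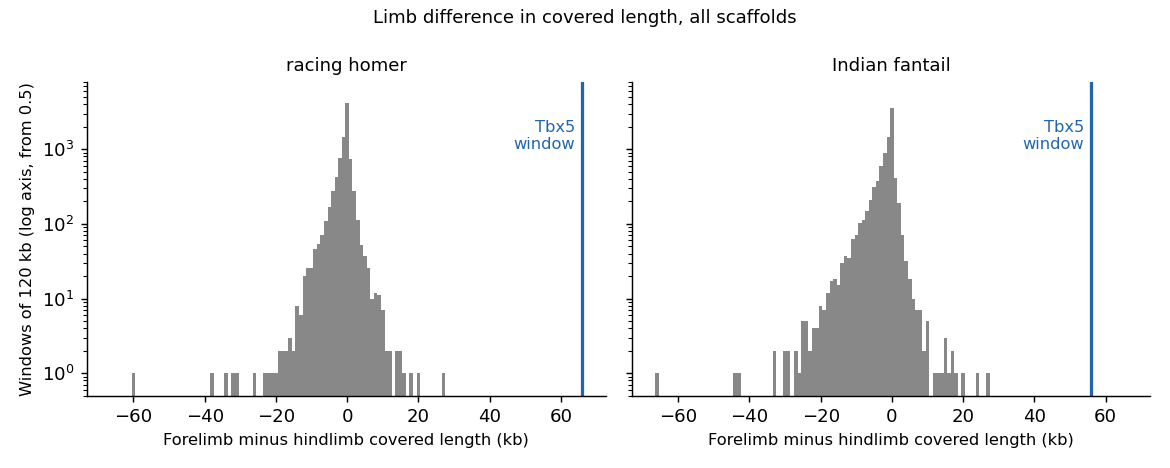
Number of 120-kb windows, on a log axis, by covered length in the forelimb minus that in the hindlimb (kb), for each breed; the line marks the *Tbx5* window. The lines stand at 66.0 and 55.9 kb, and the highest other windows at 27.4 and 26.6 kb. The lowest other windows, with more covered in the hindlimb, stand at -60.4 and -65.6 kb.

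The *Tbx3* window held peaks of both limbs in both breeds, whereas the *Tbx5* window did so in Indian fantail only. Peaks covered 23.0 kb of the *Tbx3* window in racing homer forelimb and 20.9 kb in hindlimb, and 23.4 and 21.8 kb in Indian fantail. Of the covered forelimb bases, 90.3% in racing homer and 92.8% in Indian fantail were also covered in the hindlimb. Over all scaffolds these shares were 78.7% and 84.4%, without matching for score. The forelimb peaks of the *Tbx3* window had median scores of 496 and 502, against 121 and 119 over the lists. In the other direction, 99.0% and 99.8% of hindlimb bases were covered in the forelimb, against 64.5% and 57.7% over all scaffolds. All 8 racing homer and all 7 Indian fantail hindlimb peaks had a forelimb peak over them, so that the limbs differed in presence only by the isolated forelimb peak. Over the whole hindlimb lists, 32.0% and 41.9% of peaks had no forelimb peak. When overlapping peaks of the lists were merged, the window gave 8 regions, of which 7 were present in all 4 lists. Of the 7 regions of the *Tbx5* window, none was. There, 5 were present in the forelimbs alone and 2 in the forelimbs and the Indian fantail hindlimb. Peaks were merged in the locus only, so no share over all scaffolds stands beside these counts of regions.

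The 3 strongest *Tbx3* regions were at 776417–781471, 788179–794375 and 794384–797909. The first scored 2163 in racing homer forelimb, 1487 in racing homer hindlimb, 1424 in Indian fantail forelimb and 1828 in Indian fantail hindlimb. The second scored 2329, 1359, 1633 and 1329 in the same order. The third scored 2008, 979, 1669 and 1920. Each of these was above at least 95.7% of the peaks of its list, in both limbs, and none reached 3100. The widest region, at 799659–806616, crossed the end of the window and scored 496, 576, 520 and 1210. The remaining 3 regions were lower. The narrowest, at 786949–788077, scored 299 in both racing homer limbs, 193 in Indian fantail forelimb and 424 in hindlimb. The region at 798308–799622 scored between 292 and 484 in the 4 lists. The region at 782395–786874 was a single peak in Indian fantail, with 343 in forelimb and 777 in hindlimb. In both racing homer limbs it was 2 peaks, of 510 and 128 in forelimb and of 251 and 56.1 in hindlimb, with a gap of 221 bp in forelimb and 679 bp in hindlimb.

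The edges of the *Tbx3* peaks were close to each other in the limbs. Forelimb and hindlimb peaks that overlapped each other best were paired, and the median difference between their edges was 15 bp over 8 racing homer pairs and 7.5 bp over 7 Indian fantail pairs. Over all pairs of the scaffolds it was 161 bp (12452 pairs) and 172.5 bp (12628 pairs), without matching for score. In the flanks of the locus it was 297 bp over 10 racing homer and 189 bp over 11 Indian fantail pairs. Some flank pairs were as close as the *Tbx3* ones. Hindlimb minus forelimb, the racing homer pair at 806821–809152 differed by -6 bp at the start and -45 bp at the end. The pair at 825517–830213 differed by -10 and 28 bp. In the *Tbx5* window, the 2 Indian fantail pairs had a median of 2542 bp, with hindlimb peaks much shorter than the forelimb peaks around them. The gaps between *Tbx3* peaks were also held in common. Gaps near 781461–782401 (923 to 941 bp in the 4 lists), 786869–786972 (75 to 103 bp) and 797865–798331 (398 to 465 bp) were found in each limb of each breed. In the *Tbx5* block, the gap at 686576–686971 was shared in this way by the forelimbs, with 396 bp in racing homer and 376 bp in Indian fantail. No genome sequence was at hand, so whether reads can be mapped inside these gaps was not tested.

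The limbs were then compared through the ratio of scores within a pair. The score resembles a p-value scale and the depth is unknown, so this is not a ratio of acetylation. Since each list has its own scale, a log2 ratio of forelimb to hindlimb score is read against the median of all pairs of the breed, which was -0.20 in racing homer and -0.77 in Indian fantail. Neighbouring *Tbx3* peaks are not independent, and joining peaks within 1 kb left 1 shared hindlimb peak in each breed. The pairs are thus pieces of a single stretch, and counts of them describe it only. In racing homer, the *Tbx3* pairs had a median ratio of 0.66, and 7 of 8 were above the median of all pairs. The highest were 1.19 at 786216–786869, 1.04 at 794391–797897 and 1.02 at 782395–785994, which 95.2%, 93.4% and 93.2% of all pairs fell below. The lowest, -0.22 at 799663–806608, was next to the median of all pairs. In Indian fantail the *Tbx3* median was -0.36, with 4 of 7 pairs above the median of all pairs and a range from -1.22 to 0.30. Measured from the median of the breed, the ratios in the *Tbx5* window were higher than any of these. The Indian fantail pair at 723453–736159 had a ratio of 1.17, with the forelimb at 3100, and the pair at 686952–721525 had 2.07. Of all Indian fantail pairs, 98.0% and 99.6% had a lower ratio. In the second pair, the hindlimb peak was 2155 bp wide and covered 6.23% of the 34574-bp forelimb peak. Its ratio thus compares stretches of unlike width, and other hindlimb peaks inside the forelimb peak were left unpaired.

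**Figure D4:**
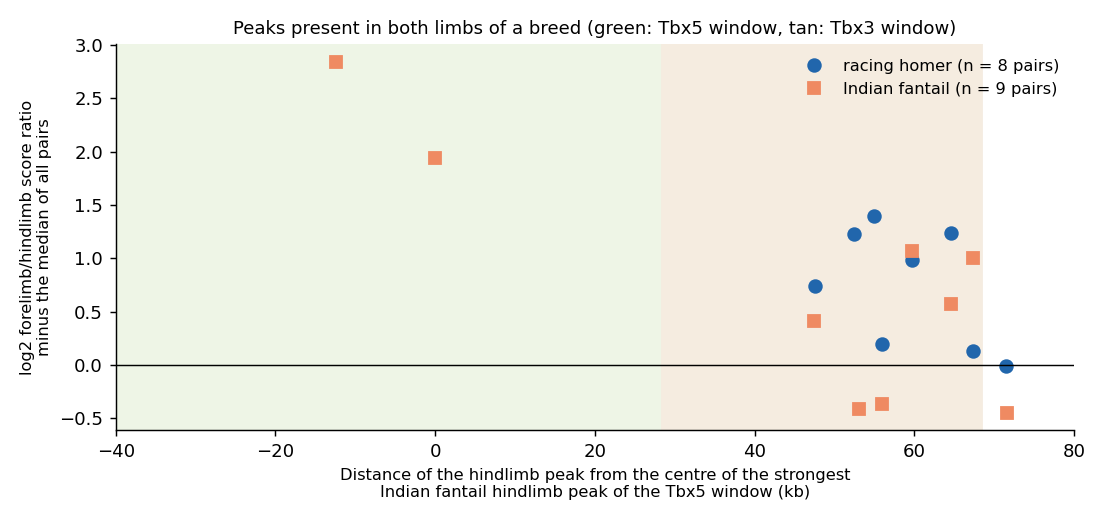
Log2 ratio of forelimb to hindlimb score of each pair of peaks, minus the median of all pairs of the breed, by the position of the hindlimb peak in kb. The 2 Indian fantail pairs of the *Tbx5* window stand at 1.94 and 2.84, and the *Tbx3* pairs between -0.45 and 1.39; racing homer has no pair in the *Tbx5* window.

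In the flanks, a smaller share of hindlimb bases was covered in the forelimb than in the *Tbx3* window. The share of forelimb bases covered in the hindlimb was no lower on the right than in that window. On the right, which held no peak beyond 936180 in any list, 93.2% of covered racing homer and 93.5% of covered Indian fantail forelimb bases were covered in the hindlimb, and 80.1% and 83.6% of hindlimb bases were covered in the forelimb. A region at 809983–811989 was present in the forelimbs alone, at 811101–811989 in racing homer (score 67.5) and 809983–811487 in Indian fantail (91.3). It was the 1 region of the flanks found in both forelimbs and neither hindlimb. The converse was seen once, at 867149–868781, which scored 105 in racing homer hindlimb and 98.1 in Indian fantail hindlimb. The region at the far right, 930356–936180, was present in all 4 lists. It scored up to 835 in racing homer and 533 in Indian fantail hindlimb, and up to 213 and 188 in the forelimbs. Measured from the median of all pairs of the breed, its log2 ratio of forelimb to hindlimb score was -1.77 in racing homer. In Indian fantail its pairs stood at -0.73 and 0.10. On the left, the strongest region lay at 305179–310942 and was likewise present in all 4 lists, with 1163 and 1405 in racing homer forelimb and hindlimb and 688 and 1988 in Indian fantail. Of the 10 merged regions of the left flank, 2 were present in all 4 lists, again with no share over all scaffolds beside this count. The share of its forelimb bases covered in the hindlimb was 70.2% in racing homer and 94.5% in Indian fantail, whereas the share of its hindlimb bases covered in the forelimb was 56.4% and 45.9%. In Indian fantail, 5 of 8 hindlimb peaks and 0 of 3 forelimb peaks there had no peak in the other limb, against 41.9% and 12.6% over the lists. In racing homer, 2 of 5 hindlimb peaks had none, against 32.0% over the list. Of its forelimb peaks there, 3 of 6 had no hindlimb peak of the breed, against 20.0% over the list. These 3 were the weak peaks at the left end of its run. The positions of the first and the second of them were not free of hindlimb peaks in Indian fantail, whose hindlimb had peaks at 523051–524271 (94.0) and 539106–539872 (58.6).

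The breeds were last compared within a limb. Of the racing homer forelimb peaks of the locus, 5 of 35 (14.3%) had no Indian fantail forelimb peak, against 24.5% over the list, and of the Indian fantail forelimb peaks 2 of 29 (6.90%) had no racing homer one, against 21.7%. None of these lay in the *Tbx5* or *Tbx3* window. Of the racing homer hindlimb peaks, 2 of 23 (8.70%) had no Indian fantail hindlimb peak, against 13.7%. Of the Indian fantail hindlimb peaks, 8 of 29 (27.6%) had no racing homer hindlimb peak, near the 30.0% over the list. These were the 4 in the forelimb block and 4 between 523051 and 570307, in the left flank, with scores of 58.6 to 98.3. By the 1-bp rule, the breeds thus differed in presence over the *Tbx5* window in the hindlimb and not in the forelimb. Of the hindlimb peaks there, those that scored 64.6 and 54.2 were near the lowest score of the list, 50. Forelimb scores in the window did differ for some peaks. The log2 ratio of racing homer to Indian fantail score ranged from -2.24 to 2.06 over 8 forelimb pairs, and its median over all pairs was 0.11.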

How the data were processed

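H3K27ac ChIP-seq reads from forelimb and hindlimb buds were processed by the authors, who deposited 1 peak list per breed and limb. The submitters' processing notes name CASAVA, Bowtie2 2.2.3, SAMtools, MACS 1.4.2 and MACS2 2.0.10.20130915 without their roles. The genome build, the use of the inputs and the way the replicates were combined are not given in the sources used here. Each deposited peak has a score, which by its values and by the peak names resembles -10 times the log10 of a p-value from MACS. This scale was inferred, and no score was converted. Other deposited columns hold scaffold positions, printed here from base 1. The deposited tables of differential enrichment between the hindlimbs hold the authors' own comparison and were not used.

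The outer limits of the *Tbx5* and *Tbx3* windows were taken from the extent of the locus that the study shows. The boundary between them, at 0.76 Mb, was set with earlier results of these data known. It could not be checked against gene models. No peak of any list lies over it, so the contrast between the windows rests in part on where it was drawn. An overlap of 1 bp or more counted as sharing. A run is a row of consecutive forelimb peaks without a hindlimb peak of the breed. Pairs are peaks that overlap each other more than any other peak of either list. Covered lengths were compared over scaffolds tiled in windows of 120 kb up to the last peak. Windows that run past the end of a scaffold were counted with the others. The genes, windows and rules were chosen with earlier results of these data known. Peaks were named by a rule: those of both gene windows and of the run, the 2 hindlimb peaks bounding it on each side, and peaks elsewhere found in a single limb in both breeds, with the highest-scoring in full. The strongest and the outermost peaks of the flanks, the intervals and gaps, and the peaks compared between breeds were added after their values were seen.

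Alternatives were an overlap of 50% of both peaks, scores of at least 100 or at the median of the list, lists of equal size, peaks within 1 kb joined, the narrower locus of 0.64–0.8 Mb, windows shifted by 60 kb and, chosen after seeing the data, a *Tbx3* window extended to 0.83 Mb. Counts and lengths were taken as the same within 1.5 times. Python 3.11.15, numpy 2.4.6 and matplotlib 3.10.9 were used, and the overlap procedures were tested on simulated data in 5 checks. The gene order came from the RefSeq table of another assembly, of which no coordinate was used.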

Additional observations from a re-analysis of the deposited data

How the results depend on the processing

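No paired analysis was possible because each list combines the replicates of its breed and limb, and for the same reason no replicate could be left out. Of 96 alternative values, 69 stayed within 1.5 times the reported one and 27 did not. The covered lengths of the *Tbx5* window and the 0 windows with as large a forelimb excess over the hindlimb were among the 69. Some of the 69 could not move. The racing homer hindlimb length of 0 kb there stays the same when peaks are dropped or close ones joined, so the tally is no measure of robustness. Racing homer forelimb peaks of the locus without a hindlimb peak (15) came to 8 at a score of at least 100, 5 at the median score and 9 after joining. Indian fantail ones (9) came to 3, 3 and 2. Racing homer hindlimb peaks without a forelimb peak (5) came to 2 at a score of at least 100, 1 at the median and 0 in the narrower locus. Indian fantail ones (7) came to 3, 3 and 0, and to 4 with lists of equal size. These settings also change how many peaks remain, and no share over the changed lists stands beside the counts. Whether the counts without a partner stay above or below background under them was thus not tested. The longest forelimb-only run had 7, 4 and 8 peaks in racing homer (14) and 2, 2 and 2 in Indian fantail (5) at a score of at least 100, at the median and after joining. In Indian fantail these were other peaks than the reported run, since the run of 2 started at 739304, on the right of the block, in each case, and the left of the core kept 1 peak, at 677175–686575, under either score limit. The longest interval without Indian fantail hindlimb peaks (158 kb, at 310506–468863) was another one under either score limit, at 476623–718139 (242 kb), which reaches into the *Tbx5* block. Joining left 1 shared *Tbx3* hindlimb peak in each breed. A *Tbx3* window extended to 0.83 Mb held 37.3 and 34.2 kb in racing homer forelimb and hindlimb and 38.3 and 35.2 kb in Indian fantail. The Indian fantail forelimb count (9) rose to 11 with lists of equal size. The depth is unknown, so a peak missing from a list shows only that none was called at a score of at least 50.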
